A study of Mus musculus with 6 samples.

Results

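Tight junctions, desmosomes and gap junctions join neighboring epithelial cells, and their genes were examined here in sorted cells of mouse thyroid tumors. The genes were taken by symbol: claudins, zonula occludens proteins (Tjp genes), Ocln, F11r and Marvel-domain proteins, connexins (Gja, Gjb and Gjc genes), desmosomal cadherins and plaque proteins, and Epcam. Of 35027 genes in the expression table, 59 matched, and 46 of these were detected in at least 3 of 6 libraries. A mean of at least 1 TPM, a level scaled to gene length and to the library total, was reached by 36 of the 46, and these 36 were tested.

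In thyroid follicles, tight junctions seal the lumen in which thyroglobulin is stored, and the mix of claudins in the membrane decides which ions and molecules can pass between cells. Occludin, F11r (JAM-A) and the Marvel-domain proteins lie in the same strands, and the zonula occludens proteins tie them to actin. Desmosomes anchor keratin filaments through cadherins, plakoglobin, plakophilins and desmoplakin, whereas connexins form channels through which adjoining cells exchange ions and small metabolites.

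Tumors of 2 genotypes were dissociated, Kate-positive cells were sorted, and their RNA was sequenced. The genotypes are compared here to ask what mutant Braf adds to tumors driven by nuclear YAP, a comparison the study's text does not describe. YAP mice carried a Cre recombinase active in thyroid follicular cells, a Cre-dependent cassette encoding the dox-controlled transactivator together with the red reporter Kate, and a dox-inducible transgene for YAPS127A, a mutant that stays in the nucleus. BrafYAP mice carried all of these plus BrafV600E, expressed from its own locus after Cre recombination. There were 3 libraries of each genotype, all from mice on dox chow from 4 weeks of age by the labels (the study's results text gives a later age, and the labels were followed), and no library had wild-type YAP alone or BrafV600E alone. By the labels each YAP library (replicates 1, 2 and 3) pooled 3 tumors, whereas each BrafYAP library (replicates 1, 2 and 6) was 1 tumor, so pooling and genotype cannot be told apart. The methods text speaks of 1 tumor per mouse and mentions no pool, so p-values measure the spread between these libraries. In bulk RNA, fewer cells of a type and less RNA per cell cannot be told apart.

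Libraries held 26.2 to 36.9 M estimated reads. Values are TPM recomputed with each gene's exonic length, so that levels can be compared between genes, and fold changes are on the log2(TPM + 1) scale, which understates the change of low genes. BrafYAP replicate 6 stood apart, with a correlation of 0.744 to 0.871 with the other libraries, which reached 0.828 to 0.980 among themselves. It was the highest or lowest of the 6 libraries for 24 of the 36 tested junction genes (66.7%, against 54.4% of all genes tested), and YAP replicate 1 was the lowest for 11 of them (30.6%, against 29.7% of all genes). Epithelial markers (Krt7, Krt8, Krt18, Krt19 and Cdh1) summed to 7050 to 21785 TPM in YAP and 8620 to 21878 TPM in BrafYAP. Thyroid markers summed to 192 to 414 TPM in YAP and 117 to 381 TPM in BrafYAP. Their levels differed widely by gene. Over the libraries Pax8 was at 75.9 to 220 TPM, Nkx2-1 at 4.65 to 23.1 TPM and Tg at 0.532 to 196 TPM, whereas Duox2 was at no more than 0.448 TPM. Immune markers summed to 11748 to 40385 TPM in YAP and 3251 to 12637 TPM in BrafYAP. Of the 5 tested, 4 (Ptprc, Cd68, Lyz2 and Csf1r) were lower in BrafYAP at an unadjusted p under 0.05 (80%, against 9.32% of all genes). Of 5 fibroblast markers, Col1a1 was lower and Dcn and Lum were higher at that level (either direction, 60%, against 20.6% of all genes). The fibroblast list summed to 118 to 216 TPM in YAP and 102 to 258 TPM in BrafYAP. The muscle marker Acta1 was also lower, with the muscle list at 17.6 TPM or less. The part of any of these markers in the differences below was not tested.

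None of the 36 junction genes passed the limma test after Benjamini-Hochberg adjustment over 14768 genes (adjusted p-values 0.0615 to 0.990), where 62 genes did (0.42% of all). At an unadjusted p under 0.05, 8 junction genes had higher values in BrafYAP (22.2%, against 11.2% of all genes) and 2 had lower values (5.56%, against 9.32%). Counting genes for which every library of one genotype lay above every library of the other, 10 junction genes were higher in BrafYAP (27.8%, against 13.6% of all genes) and 4 were lower (11.1%, against 14.7%). A fold change above 0 was found for 23 of the 36 (63.9%, against 47.9% of all genes). The median log2 fold change was 0.64 for the 36 genes and -0.03 for all genes tested. Cldn2, Cldn5 and Cldn10 reached the minimum mean through BrafYAP alone, so these counts and the median describe the tested genes and not the whole family.

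**Figure D1:**
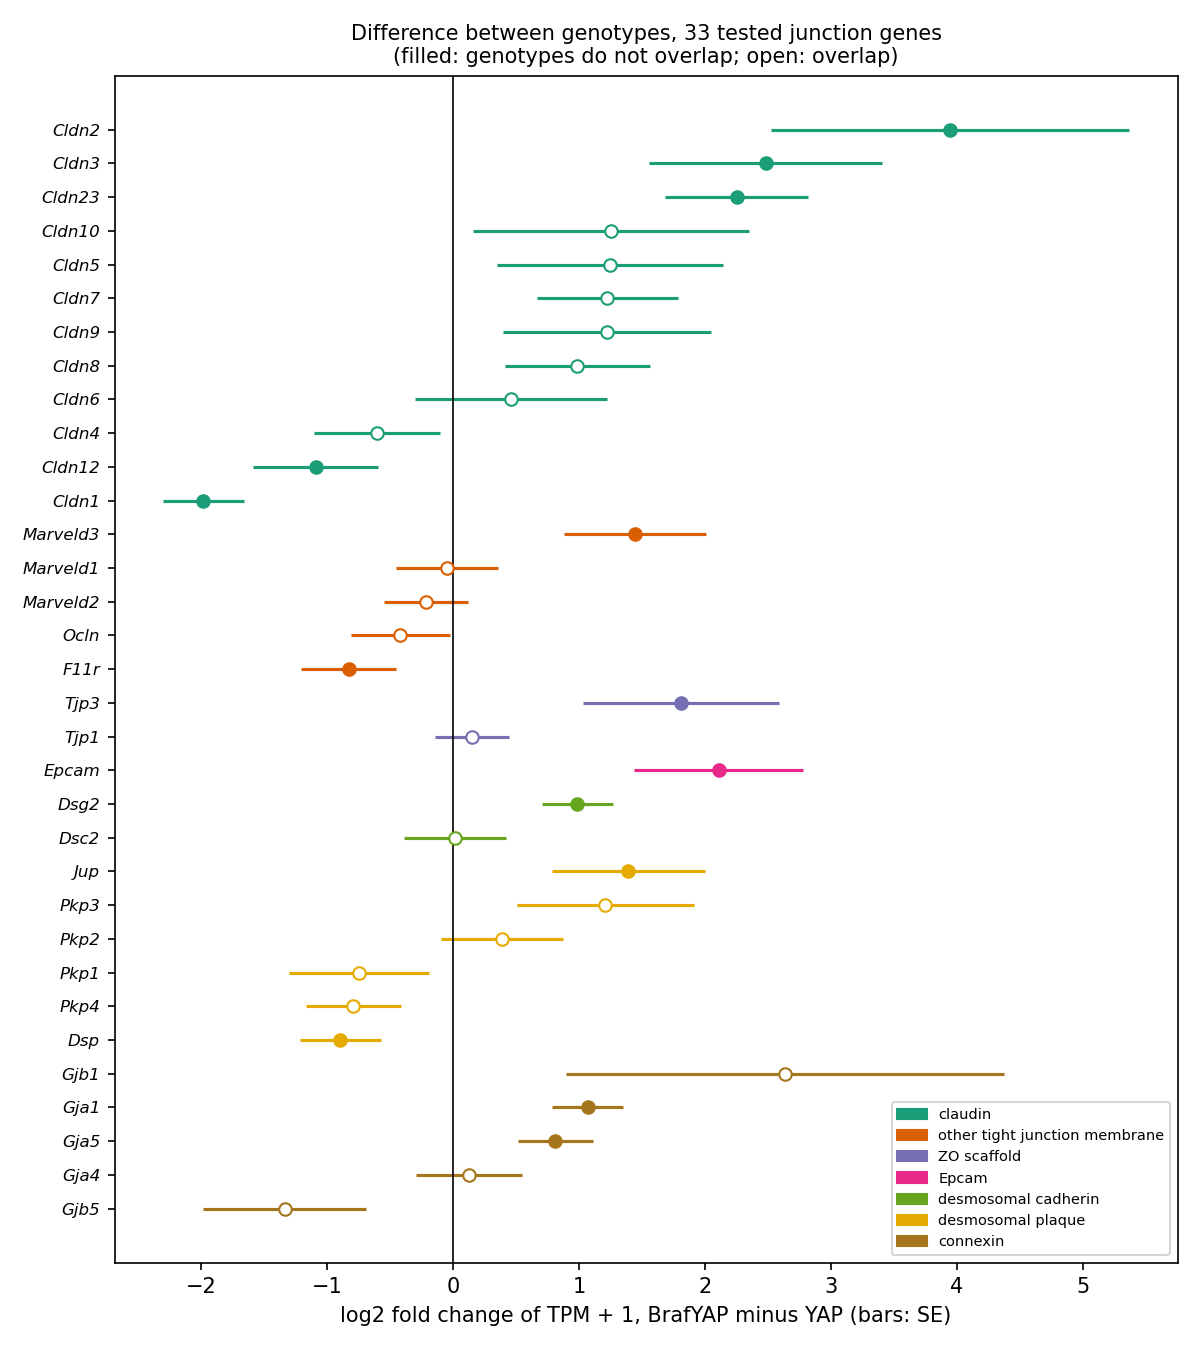
Log2 fold change of TPM + 1 (x axis, BrafYAP minus YAP) for 33 tested junction genes (y axis, grouped and colored by class), with bars for the standard error from limma. Filled points are the 14 genes whose genotypes do not overlap, 10 of them to the right of 0 and 4 to the left, and claudins span from -1.98 (Cldn1) to 3.95 (Cldn2).

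By mean TPM over the libraries, claudins gave the most abundant junction transcripts. The leading claudin was Cldn3 in every BrafYAP library and in YAP replicate 2, and Cldn4 in YAP replicates 1 and 3. Cldn3, which seals the paracellular space, had 61.7, 748 and 643 TPM in YAP replicates 1, 2 and 3 and 2507, 1087 and 1931 TPM in BrafYAP replicates 1, 2 and 6. The genotypes did not overlap, and YAP replicate 1 was far below the other two. The log2 fold change was 2.48 (SE 0.93, unadjusted p = 0.0302, adjusted p = 0.194), and 1.32 without YAP replicate 1. Cldn4, a neighbor of Cldn3 with a gap of 39.3 kb between them on chromosome 5 and also a barrier-forming claudin, had 421, 552 and 1178 TPM in YAP and 729, 360.3 and 296 TPM in BrafYAP. The genotypes overlapped for Cldn4, and its log2 fold change was -0.61 (SE 0.50, adjusted p = 0.522).

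The ratio of Cldn3 to Cldn4 was 0.146, 1.35 and 0.546 in YAP and 3.44, 3.02 and 6.53 in BrafYAP, so that Cldn3 exceeded Cldn4 in every BrafYAP library and in 1 of the 3 YAP libraries. In YAP, Cldn3 made up 26.3% ± 20.4 (SD, n = 3) of all claudin TPM, compared with 61.2% ± 5.51 (SD, n = 3) for BrafYAP. Cldn4 made up 42.0% ± 6.18 (SD, n = 3) in YAP, compared with 15.5% ± 4.72 (SD, n = 3) for BrafYAP. For Cldn1 the share in YAP was 7.38% ± 4.94 (SD, n = 3), compared with 0.920% ± 0.399 (SD, n = 3) for BrafYAP. None of these 3 shares overlapped between genotypes, although the shares within a library depend on each other. The summed claudin TPM itself overlapped, at 932, 1582 and 2562 in YAP and 3994, 1977 and 2941 in BrafYAP.

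**Figure D2:**
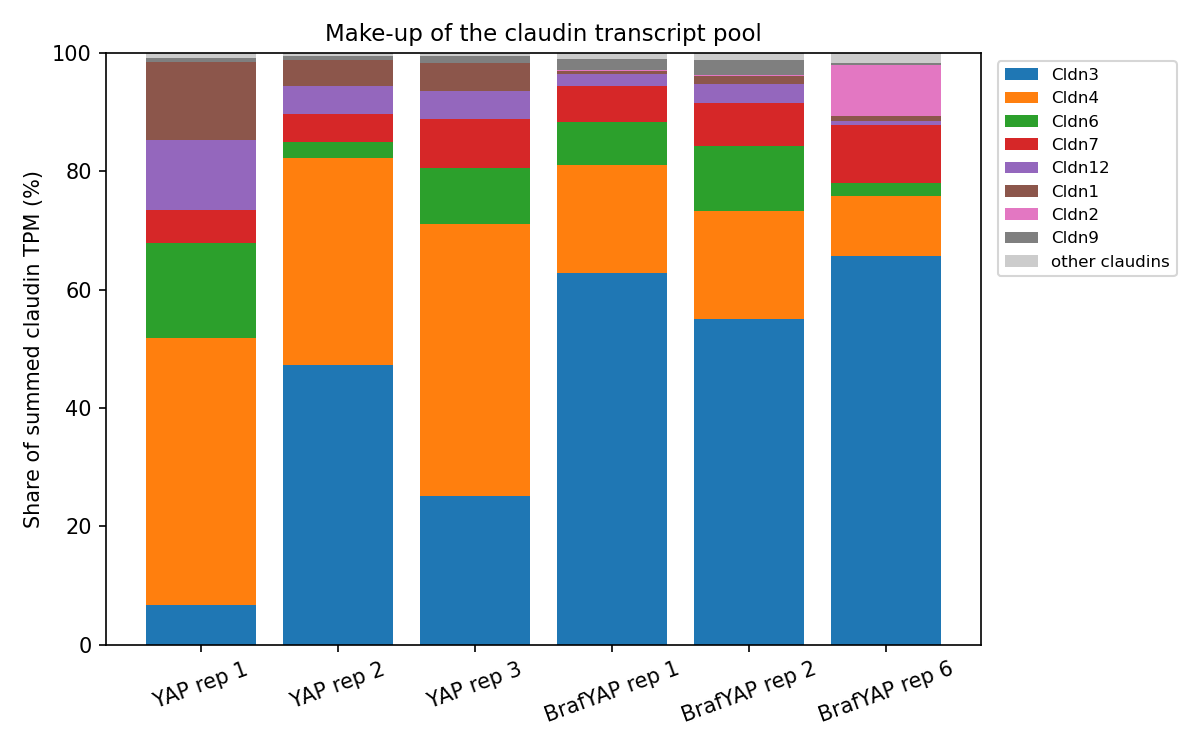
Share of the summed claudin TPM (y axis, %) taken by each of the 8 claudins with the highest mean share and by all others in gray, for each library (x axis). Cldn3 (blue) fills 55.0 to 65.7% of the bar in BrafYAP and 6.62 to 47.3% in YAP, and Cldn2 (pink) is visible in BrafYAP replicate 6, at 8.52%.

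Cldn1, a claudin needed for a tight epithelial barrier, had the smallest p-value of the 36 junction genes. It had 122, 68.1 and 122 TPM in YAP and 22.7, 26.7 and 24.7 TPM in BrafYAP. The BrafYAP libraries lay close together and below all YAP libraries. The log2 fold change was -1.98 (SE 0.32, unadjusted p = 3.79e-04, adjusted p = 0.0615), and between -2.26 and -1.85 when each library was left out in turn. It passed the threshold with quantile normalization (adjusted p = 0.0497), as did 101 of 14768 genes, and with array weights (adjusted p = 0.00109), as did 4118. Under the other settings it did not pass. The adjusted p was 0.170 with the replicate block, where only replicates 1 and 2 inform the genotype difference. It was 0.133 without a filter and 0.0578 to 0.188 with each library left out. Cldn12 had 111, 77.3 and 121 TPM in YAP and 76.2, 62.8 and 21.3 TPM in BrafYAP, with no overlap by a margin of about 1 TPM (log2 fold change -1.09, SE 0.50, adjusted p = 0.270). Without BrafYAP replicate 6 the fold change of Cldn12 was -0.54.

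Cldn23, a less studied claudin, was higher in BrafYAP from a low level. Its values were 0.574, 5.56 and 4.60 TPM in YAP and 24.5, 16.1 and 13.3 TPM in BrafYAP. The genotypes were apart in every library, with the lowest value, resting on 12 reads, in YAP replicate 1. The log2 fold change was 2.25 (SE 0.57, unadjusted p = 0.00502, adjusted p = 0.0961). Cldn2, which forms a pore for cations and water, was close to 0 in YAP, at 0.159, 0.245 and 0.169 TPM, and had 5.11, 3.04 and 250.4 TPM in BrafYAP. Every BrafYAP value was above YAP, and replicate 6 was far above the other two. The log2 fold change was 3.95 (SE 1.42, unadjusted p = 0.0261, adjusted p = 0.180), and 2.06 without BrafYAP replicate 6. Because Cldn2 reached the minimum mean through BrafYAP alone, its p-values give no support to the difference.

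**Figure D3:**
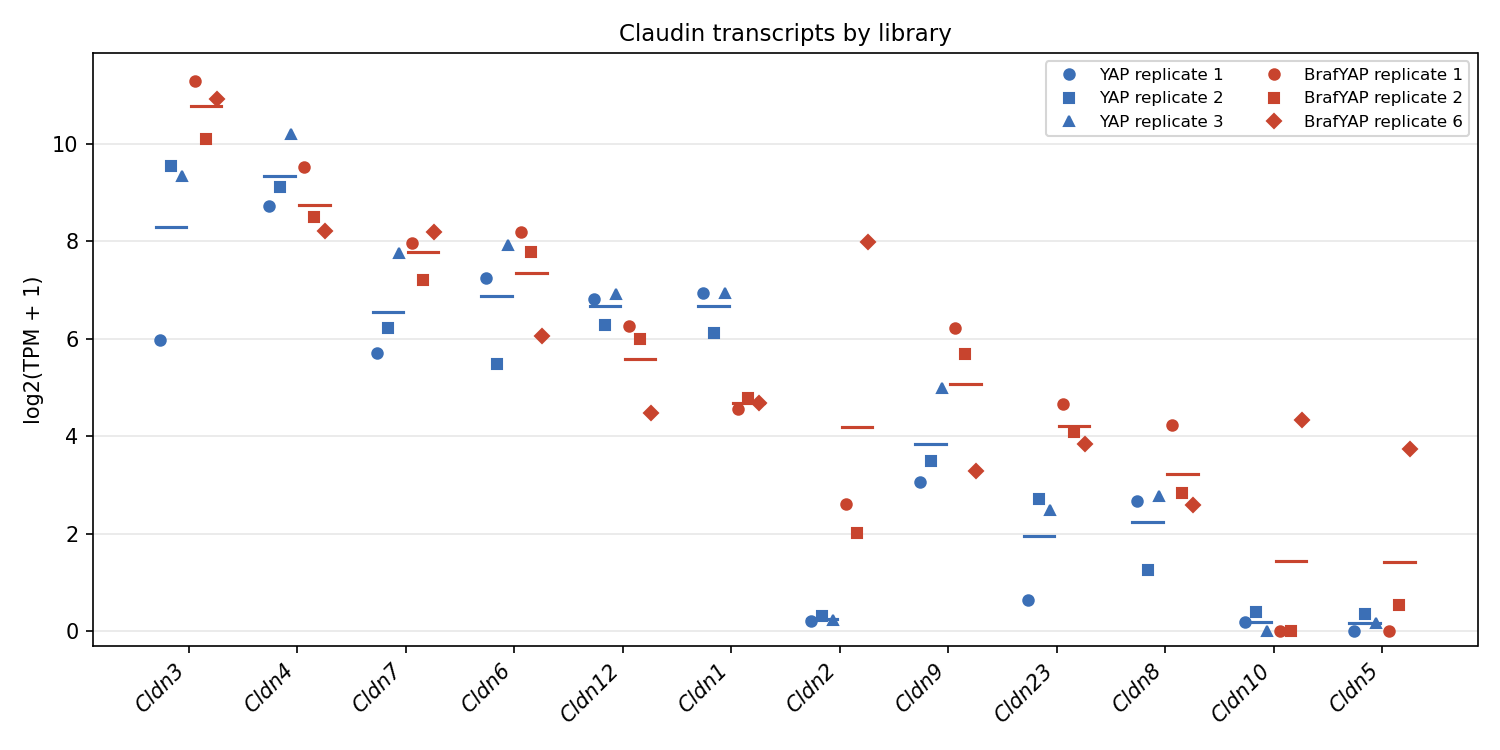
Level of each tested claudin as log2(TPM + 1) (y axis), with 1 point per library (blue for YAP, red for BrafYAP, marker shape for the replicate) and a line at each genotype's mean. Cldn3, Cldn2 and Cldn23 have all red points above all blue points, Cldn1 and Cldn12 all red points below, and for Cldn2, Cldn10 and Cldn5 BrafYAP replicate 6 (diamond) lies far above every other library.

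The bases upstream of the start sites of Cldn1, the claudin with the smallest p-value, and Cldn2, which was near 0 in YAP, are shown because YAP acts at promoters and enhancers through TEAD factors and MAPK signaling through AP-1. They are the 250 bases before the RefSeq start site on GRCm38.p6, read 5′ to 3′ on the gene's strand, at chr16:26371840-26372089 (minus strand) and chrX:139800558-139800807 (plus strand). Capitals mark matches, on either strand, to the TEAD core GGAATG, the AP-1 motif TGANTCA and the TATA box TATAAA. The matches do not overlap each other.
Cldn1: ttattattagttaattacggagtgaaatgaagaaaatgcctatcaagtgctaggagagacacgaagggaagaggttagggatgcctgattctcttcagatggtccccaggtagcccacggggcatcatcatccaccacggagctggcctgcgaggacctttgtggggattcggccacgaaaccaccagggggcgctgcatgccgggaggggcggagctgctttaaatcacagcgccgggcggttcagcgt
Cldn2: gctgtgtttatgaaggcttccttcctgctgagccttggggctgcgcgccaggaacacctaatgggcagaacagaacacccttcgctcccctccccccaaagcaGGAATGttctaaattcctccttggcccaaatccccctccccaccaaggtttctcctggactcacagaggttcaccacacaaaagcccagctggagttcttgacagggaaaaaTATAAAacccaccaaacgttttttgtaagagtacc
The Cldn2 window held GGAATG 147 bases before the start and TATAAA 35 bases before it, whereas the Cldn1 window held none of the 3. Of 32851 mouse promoters of this length, 12.6% held the TEAD core, 6.75% the AP-1 motif and 12.4% the TATA box. The 24 tested junction genes with an entry had 35 such windows, since a gene can have several start sites. The TEAD core was found in 4 of the 35 (11.4%, for Cldn2, Cldn7, Gjb1 and Marveld1), the AP-1 motif in 3 (8.57%, for Cldn4, F11r and Gja1) and the TATA box in 5 (14.3%). These matches are letters in a window and say nothing of binding.

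The other 6 tested claudins overlapped between genotypes. Cldn7, which is bound by Epcam at the lateral membrane, had 51.0, 73.5 and 214 TPM in YAP and 247, 146 and 290.1 TPM in BrafYAP (log2 fold change 1.22, SE 0.56, adjusted p = 0.271). Cldn6, a claudin of embryonic epithelia, and Cldn9 lie 137 bases apart on chromosome 17, and their fold changes were 0.46 (SE 0.76) and 1.22 (SE 0.83). In both, BrafYAP replicates 1 and 2 exceeded replicate 6, with Cldn6 at 291, 217 and 65.9 TPM and Cldn9 at 73.0, 50.4 and 8.84 TPM. Cldn8, a claudin of the distal nephron, had a fold change of 0.99 (SE 0.58). Cldn5, the main claudin of endothelium, and Cldn10, which forms ion pores, were above 1 TPM in BrafYAP replicate 6 alone, at 12.4 and 19.2 TPM.

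Epcam, an adhesion protein that stabilizes Cldn7 and is cleaved by the matriptase protease, had higher values in BrafYAP. It had 21.2, 14.4 and 50.7 TPM in YAP and 74.6, 65.0 and 283 TPM in BrafYAP. The genotypes did not overlap, and BrafYAP replicate 6 was the highest. The log2 fold change was 2.11 (SE 0.67, unadjusted p = 0.0155, adjusted p = 0.147), and 1.44 without BrafYAP replicate 6. The window upstream of Epcam (chr17:87635729-87635978, plus strand, GRCm38.p6), shown as the counterpart to those of the claudins, held none of the 3 motifs.
Epcam: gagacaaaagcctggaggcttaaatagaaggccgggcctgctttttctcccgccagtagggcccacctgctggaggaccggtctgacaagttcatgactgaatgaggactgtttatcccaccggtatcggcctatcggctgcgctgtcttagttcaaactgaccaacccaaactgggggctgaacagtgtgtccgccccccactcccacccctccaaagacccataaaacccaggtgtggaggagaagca
Spint1 and Spint2, membrane inhibitors of matriptase, were also higher in BrafYAP. Spint1 had 21.01, 93.5 and 46.8 TPM in YAP and 207, 151 and 393 TPM in BrafYAP (log2 fold change 2.32, SE 0.59, adjusted p = 0.0974). Spint2 had 34.6, 73.7 and 71.9 TPM in YAP and 172, 184 and 383 TPM in BrafYAP (log2 fold change 1.99, SE 0.45, adjusted p = 0.0805). Neither overlapped between genotypes, and neither passed the adjusted threshold. The gene for matriptase, St14, overlapped between genotypes (log2 fold change 1.46, SE 0.65, adjusted p = 0.257).

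Among the other tight junction membrane proteins, F11r and Marveld3 differed in opposite directions. F11r, an adhesion molecule of the immunoglobulin family, had 568, 451 and 533 TPM in YAP and 410.2, 340.4 and 172 TPM in BrafYAP. It was the most abundant of these genes in every library, and the BrafYAP libraries lay below YAP (log2 fold change -0.83, SE 0.37, unadjusted p = 0.0599, adjusted p = 0.263). Without BrafYAP replicate 6 it was -0.46. Marveld3, a relative of occludin, had 1.86, 8.89 and 9.73 TPM in YAP and 20.3, 10.9 and 23.0 TPM in BrafYAP. BrafYAP was above YAP throughout (log2 fold change 1.44, SE 0.57, unadjusted p = 0.0368, adjusted p = 0.211), by 0.82 without YAP replicate 1. Ocln, the founding member of this group, had 43.4, 24.9 and 51.1 TPM in YAP and 39.8, 28.8 and 19.6 TPM in BrafYAP. The genotypes overlapped (log2 fold change -0.42, SE 0.39), as they did for Marveld2, the tricellular junction protein tricellulin (-0.22, SE 0.33), and for Marveld1 (-0.05, SE 0.41, and 0.38 without BrafYAP replicate 6).

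Of the zonula occludens scaffolds, Tjp1 and Tjp3 did not pass the test. Tjp1 (ZO-1) had similar levels in all libraries, with 7.50, 7.11 and 8.09 TPM in YAP and 6.45, 8.13 and 11.6 TPM in BrafYAP (log2 fold change 0.15, SE 0.29). Tjp3 (ZO-3) had 0.547, 6.44 and 6.59 TPM in YAP and 10.6, 7.56 and 36.7 TPM in BrafYAP. Tjp3 did not overlap between genotypes (log2 fold change 1.81, SE 0.78, unadjusted p = 0.0518, adjusted p = 0.247), with 1.05 left without YAP replicate 1. Tjp3 overlaps Apba3 on the opposite strand, at a mean of 56.1 TPM, and reads of both can be mixed because the counting is not described as strand-specific, so the values of Tjp3 are uncertain.

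**Figure D4:**
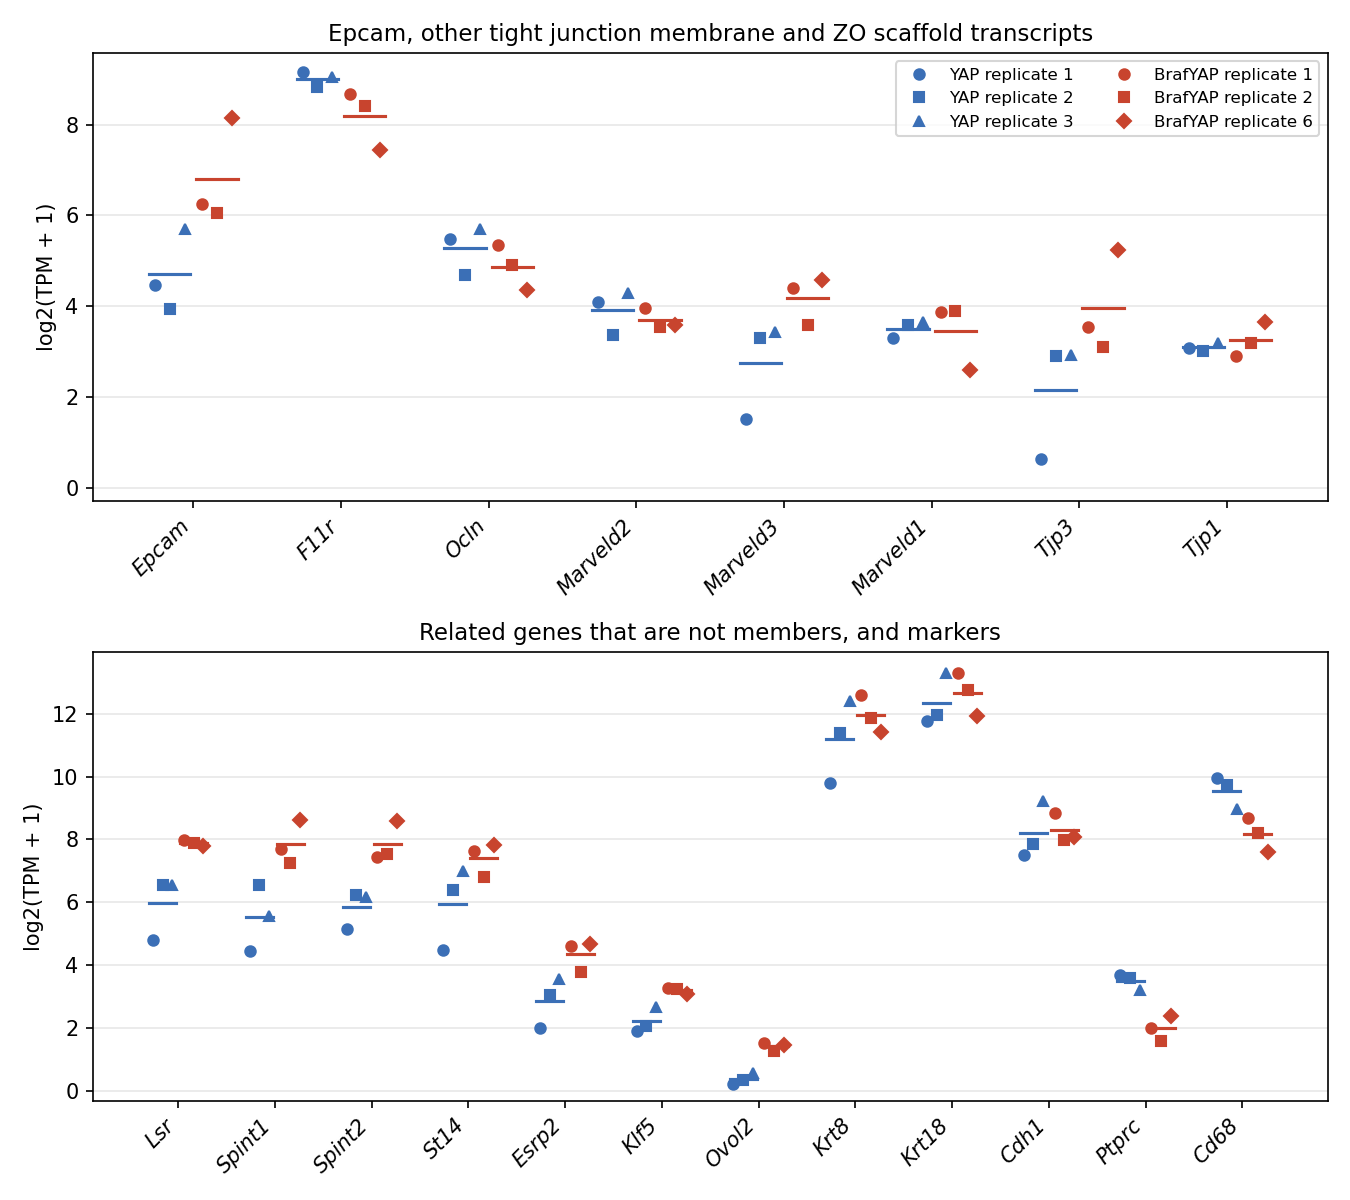
Levels as log2(TPM + 1) (y axis), 1 point per library and a line at each genotype's mean, for Epcam, the other tight junction membrane genes and the scaffolds (top) and for related genes and markers (bottom). Epcam, Marveld3, Tjp3, Lsr, Spint1 and Spint2 have all BrafYAP points (red) above YAP (blue), F11r, Ptprc and Cd68 have them below, and Krt8, Krt18 and Cdh1 overlap.

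Desmosomal genes differed in opposite directions within the plaque. Dsp, desmoplakin, which binds keratin filaments, had 22.2, 15.2 and 25.7 TPM in YAP and 11.5, 12.8 and 8.00 TPM in BrafYAP. Every BrafYAP library was below every YAP library (log2 fold change -0.90, SE 0.32, unadjusted p = 0.0258, adjusted p = 0.178). Jup, plakoglobin, which links the cadherins to desmoplakin, had 32.9, 168 and 148 TPM in YAP and 243, 292 and 215 TPM in BrafYAP. Every BrafYAP library was above YAP, and YAP replicate 1 was the lowest by far (log2 fold change 1.39, SE 0.61, unadjusted p = 0.0547, adjusted p = 0.253). Without YAP replicate 1 the fold change of Jup was 0.65. The ratio of Jup to Dsp was 1.48, 11.1 and 5.77 in YAP and 21.1, 22.8 and 26.8 in BrafYAP.

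Of the desmosomal cadherins, Dsg2, a desmoglein of simple epithelia, had 10.4, 9.61 and 12.4 TPM in YAP and 19.1, 28.2 and 20.3 TPM in BrafYAP. Both groups were compact and did not overlap (log2 fold change 0.99, SE 0.28, unadjusted p = 0.00941, adjusted p = 0.120), and the value stayed between 0.82 and 1.09 when each library was left out in turn. Its partner Dsc2, desmocollin 2, had 24.0, 17.6 and 33.1 TPM in YAP and 18.8, 18.6 and 40.8 TPM in BrafYAP. These overlapped (log2 fold change 0.01, SE 0.41), and the sign of that value turned under several settings. The ratio of Dsg2 to Dsp was 0.467, 0.632 and 0.481 in YAP and 1.66, 2.20 and 2.53 in BrafYAP, so that desmoglein 2 exceeded desmoplakin in BrafYAP only. The 4 plakophilins, plaque proteins that gather the cadherins, overlapped between genotypes, with log2 fold changes of 1.21 (SE 0.70) for Pkp3, 0.39 (SE 0.48) for Pkp2, -0.75 (SE 0.56) for Pkp1 and -0.79 (SE 0.38) for Pkp4. Of 4 squamous or basal markers, all tested, 1 was lower in BrafYAP at an unadjusted p under 0.05 (either direction, 25%, against 20.6% of all genes). It was the keratin gene Krt14, with 65.6, 51.9 and 35.0 TPM in YAP and 6.56, 24.7 and 27.6 TPM in BrafYAP (log2 fold change -1.51, SE 0.55, adjusted p = 0.186). The other markers overlapped, with log2 fold changes of -0.29 (SE 0.58) for Krt5, 0.07 (SE 0.27) for Trp63 and 0.56 (SE 0.56) for Krt6a. The list summed to 41.4 to 74.8 TPM in YAP and 12.7 to 39.8 TPM in BrafYAP, and its part in the desmosomal values was not tested.

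Among connexins, Gja1 (connexin 43), the most widely expressed gap junction protein, was higher in BrafYAP. It had 62.9, 43.4 and 45.7 TPM in YAP and 99.3, 97.8 and 122 TPM in BrafYAP. The genotypes were well apart (log2 fold change 1.07, SE 0.28, unadjusted p = 0.00618, adjusted p = 0.104), and the value was 0.97 to 1.23 when each library was left out in turn. In YAP, Gja1 made up 6.37% ± 1.90 (SD, n = 3) of all connexin TPM, compared with 13.6% ± 2.18 (SD, n = 3) for BrafYAP. The window upstream of Gja1 (chr10:56377050-56377299, plus strand, GRCm38.p6) is shown because it held an AP-1 motif, TGAGTCA, 19 bases before the start.
Gja1: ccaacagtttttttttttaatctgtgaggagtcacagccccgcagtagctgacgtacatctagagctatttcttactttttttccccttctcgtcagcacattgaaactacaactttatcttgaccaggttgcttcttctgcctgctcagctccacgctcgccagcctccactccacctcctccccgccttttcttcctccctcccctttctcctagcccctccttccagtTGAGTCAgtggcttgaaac
Gja5 (connexin 40), a connexin of arteries and the heart, had 2.21, 2.55 and 1.86 TPM in YAP and 4.36, 3.42 and 6.45 TPM in BrafYAP. The genotypes did not overlap (log2 fold change 0.81, SE 0.30, unadjusted p = 0.0285, adjusted p = 0.189). Gja5 overlaps Gpr89 on the opposite strand, at a mean of 21.1 TPM, so its values are uncertain. Gja4 (connexin 37), which is also vascular, had 0.762 to 4.39 TPM, and its genotypes overlapped (log2 fold change 0.12, SE 0.42, and -0.31 without BrafYAP replicate 6).

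Gjb5, a connexin of chromosome 4, ranged from 46.3 to 94.1 TPM in YAP and from 8.23 to 52.6 TPM in BrafYAP. The genotypes overlapped, with BrafYAP replicate 6 the lowest (log2 fold change -1.34, SE 0.65, adjusted p = 0.296). Without that library the value was -0.60.

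**Figure D5:**
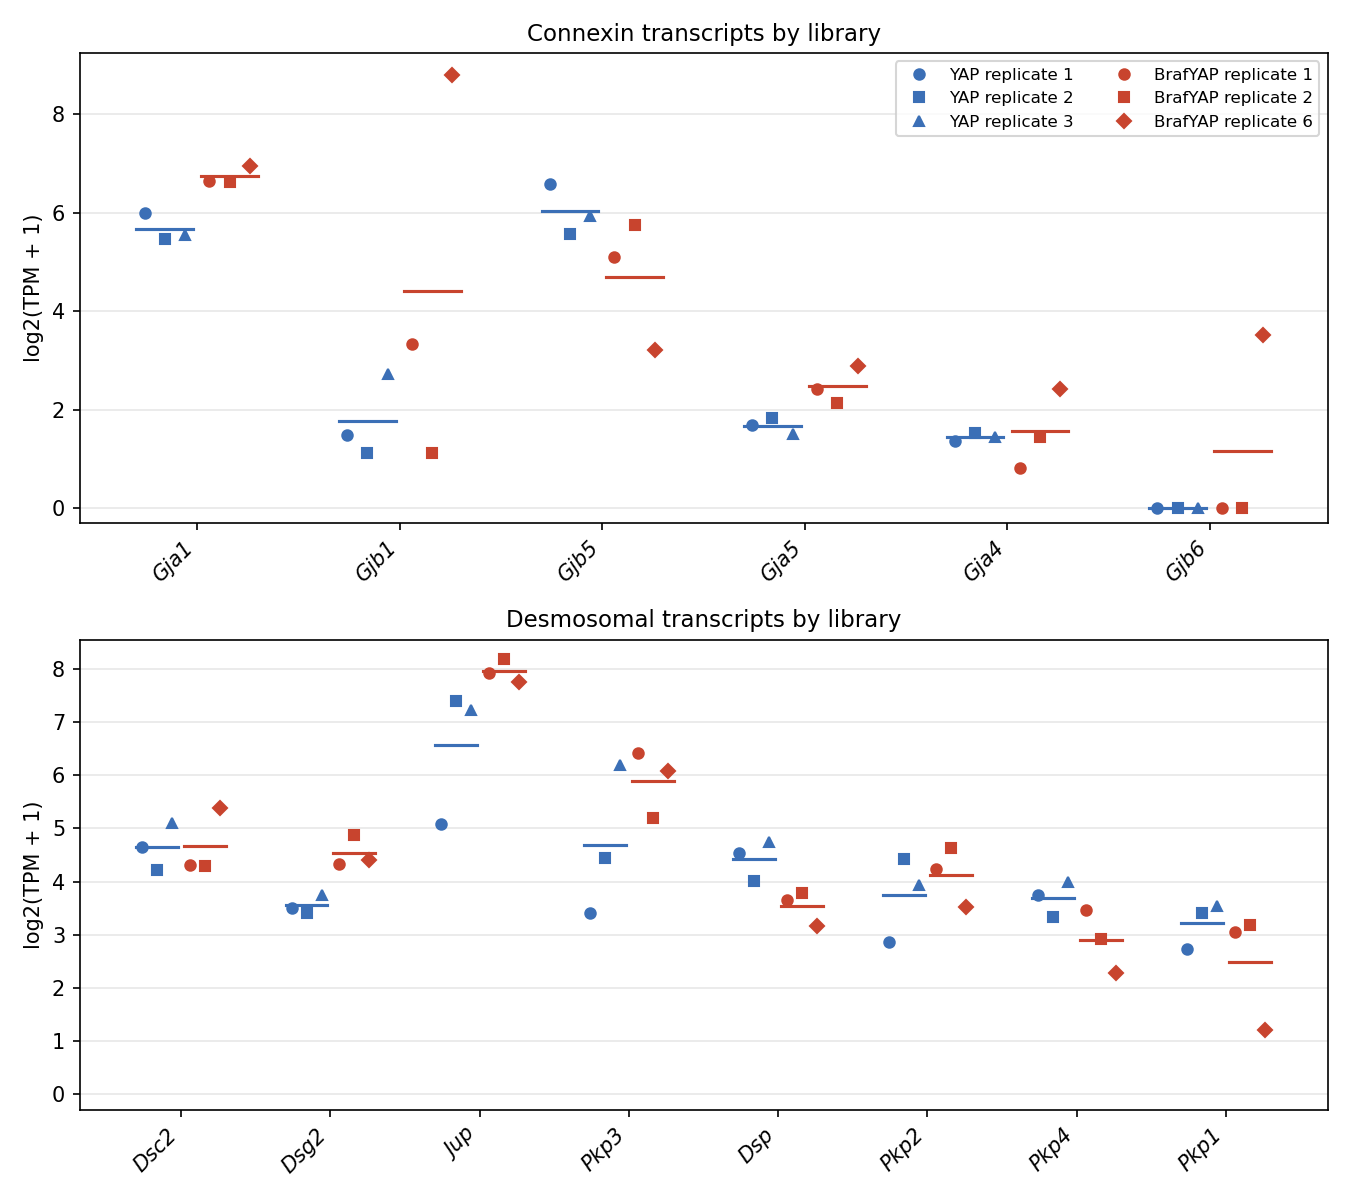
Levels of connexins (top, 5 tested genes and Gjb6) and of tested desmosomal genes (bottom) as log2(TPM + 1) (y axis), 1 point per library (blue YAP, red BrafYAP) with a line at each genotype's mean. Gja1, Gja5, Dsg2 and Jup have all red points above the blue ones, Dsp all below, and the diamond of BrafYAP replicate 6 is at the top for Gjb1 and Gjb6 and at the bottom for Gjb5.

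BrafYAP replicate 6 had its own connexin make-up. Gjb1 (connexin 32), the connexin of hepatocytes and other polarized epithelia, had 1.81, 1.19 and 5.58 TPM in YAP and 9.08, 1.18 and 443 TPM in BrafYAP. Replicate 6 alone was high, so the genotypes overlapped (log2 fold change 2.64, SE 1.74, adjusted p = 0.431), and the value without it was 0.45. Gjb1 made up 57.7% of connexin TPM in replicate 6 and at most 1.20% in any other library. Gjb6 (connexin 30) had 353 reads there and 0 in the other 5 libraries. It was therefore not among the 46 genes analysed. The same library held the highest level of the surfactant genes, with Sftpa1 at 15442 TPM, Sftpb at 1631 TPM and Sftpc at 38.6 TPM. Sftpc was at 0 in the other libraries. Sftpb was at 70.4 and 8.44 TPM in BrafYAP replicates 1 and 2 and at most 0.943 TPM in YAP (log2 fold change 6.20, SE 1.62, unadjusted p = 0.00606, adjusted p = 0.103). Sftpa1 was at 17.7 and 1.95 TPM in these and at most 1.20 TPM in YAP, so both genes were higher in every BrafYAP library than in any YAP library. Both genes reached the minimum mean through BrafYAP alone, so the p-values of Sftpb give no support to the difference. The parathyroid hormone gene Pth was at 637 TPM in BrafYAP replicate 6 and 106 TPM in YAP replicate 2, and at most 2.99 TPM elsewhere. The C cell and parathyroid list summed to 872 TPM in BrafYAP replicate 6, 196 TPM in YAP replicate 2 and 61.3 TPM in YAP replicate 1 (Calca at 57.8 TPM), and to at most 4.38 TPM in the rest. The alveolar list summed to 18112 TPM there and to 546 to 1540 TPM in the other libraries, most of it Ager. Cldn18, the claudin of alveolar cells, had at most 5 reads in any library. Of 6 endothelial markers, Pecam1, Emcn, Cdh5, Tek and Vwf were highest in replicate 6 (Pecam1 at 8.80 TPM, against at most 1.82 elsewhere). Kdr was instead highest in YAP replicate 2, at 29.002 TPM against 4.76 TPM in replicate 6. The endothelial list summed to 25.9 TPM in replicate 6 and 32.4 TPM in YAP replicate 2, where Cldn5 was at 0.287 TPM, and to 2.08 to 7.02 TPM in the other libraries. The part of such cells in the values of Gjb1, Gjb6, Cldn2, Cldn5, Cldn10 and Epcam was not tested.

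The remaining genes were near the limit of detection. The 10 that were analysed but not tested (Cldn13, Cldn15, Cldn18, Dsc3, Dsg3, Dsg4, Gja3, Gjb2 and Gjc1 among them) had 0 to 87 reads per library. Among them Dsg3, a desmoglein of stratified epithelia, had 81, 43 and 61 reads in YAP and 87, 65 and 14 reads in BrafYAP. Gjc1 (connexin 45) had 21, 26 and 39 reads in YAP and 5, 6 and 4 reads in BrafYAP, a description at low depth chosen after the values were seen. Besides Gjb6, the 12 genes that were not analysed (Cldn11, Cldn14, Cldn17, Cldn19, Cldn20, Dsc1, Dsg1a, Dsg1b, Gja10, Gja6 and Gjc3 among them) had at most 31 reads, and Cldn17, Dsc1, Dsg1a and Dsg1b had 0 in every library.

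Genes that work with these junctions were listed separately. Of 11 adherens junction genes, all tested, 1 was higher in BrafYAP at an unadjusted p under 0.05 (either direction, 9.09%, against 20.6% of all genes) and 0 were lower. This was Ctnnb1 (beta-catenin), with 76.4, 125 and 108 TPM in YAP and 267, 348 and 269.9 TPM in BrafYAP (log2 fold change 1.52, SE 0.30, adjusted p = 0.0745). Cdh1 (E-cadherin), the main adherens junction cadherin, overlapped (log2 fold change 0.11, SE 0.50). Of 26 tested scaffold, polarity and immunoglobulin-family genes of the tight junction, 1 was higher and 2 were lower. In either direction this was 11.5%, against 20.6% of all genes. Lsr, which recruits tricellulin to tricellular contacts, had 27.2, 93.5 and 93.5 TPM in YAP and 253, 234 and 219 TPM in BrafYAP (log2 fold change 1.90, SE 0.49, adjusted p = 0.101). The lower genes were Cgn (cingulin, log2 fold change -1.21, SE 0.50) and Magi3 (-0.78, SE 0.30). Of 5 tested desmosome-associated, pannexin and Trop2 genes, 1 was higher, the desmosomal protein gene Perp (1.25, SE 0.49). That was 20% in either direction, near the 20.6% of all genes.

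Regulators of epithelial junctions had the largest share of the 4 lists, with 5 of 14 higher in BrafYAP at an unadjusted p under 0.05 (35.7%, against 11.2% of all genes) and 0 lower. Besides Spint1 and Spint2 they were the epithelial transcription factors Ovol2 and Klf5 and the splicing regulator Esrp2. Ovol2 had 0.167, 0.289 and 0.487 TPM in YAP and 1.92, 1.42 and 1.79 TPM in BrafYAP (log2 fold change 1.05, SE 0.26, adjusted p = 0.0936). It reached the minimum mean through BrafYAP alone, so its p-values give no support to the difference. The count of 5 includes it and describes the tested genes only. Klf5 had 2.77, 3.19 and 5.43 TPM in YAP and 8.77, 8.55 and 7.45 TPM in BrafYAP (log2 fold change 0.99, SE 0.30, adjusted p = 0.139). Esrp2 had 3.06, 7.27 and 10.8 TPM in YAP and 23.4, 12.7 and 24.5 TPM in BrafYAP (log2 fold change 1.47, SE 0.47, adjusted p = 0.144). None of the 5 overlapped between genotypes, where 13.6% of all genes were higher without overlap. Since the 5 were picked by p-value, this adds no support. In these 4 lists 0 genes passed the adjusted threshold.

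Because epithelial marker levels varied by library, junction genes were also expressed per 1000 TPM of summed epithelial markers, a scale chosen after the data were seen and given without a test. On it 5 genes were higher in BrafYAP without overlap (Cldn2, Cldn3, Cldn7, Cldn23 and Epcam) and 8 were lower (among them Cldn1, Cldn4, Cldn12, Dsp, F11r, Ocln and Pkp4), beside 2.65% of all genes higher and 8.59% lower. Cldn4, which overlapped in TPM, had 59.7, 57.3 and 54.1 units in YAP and 33.3, 25.8 and 34.3 units in BrafYAP, both compact. Cldn3 had 8.75, 77.6 and 29.5 units in YAP and 115, 77.8 and 224 units in BrafYAP, so that YAP replicate 2 and BrafYAP replicate 2 were almost equal. Of the 14 genes without overlap in TPM, 8 were without overlap on both scales, and Gja1, Dsg2, Jup, Gja5, Marveld3 and Tjp3 were not among them.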

How the data were processed

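RNA was amplified by SMART-Seq from about 20000 sorted cells per library. STAR 2.6.1d alignments to mm10 were quantified by the authors with Partek E/M (Ensembl release 95), giving 1 deposited table of TPM with 0.0001 added. These had been divided by genomic span, introns included: multiplied by the span, 71.7 to 76.0% of low values were whole multiples of 1 read (within 0.05), against 22.3 to 24.9% for the exonic length. Reads were therefore estimated as (value - 0.0001) × span / step, and TPM were recomputed with exonic lengths from GENCODE M21 (GRCm38). Reads carry no molecular identifiers, so read numbers cover counting error only. No batch is labelled.

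Genotypes were compared with limma 3.58.1 in R 4.3.3 (eBayes with trend, two-sided, no block) on log2(TPM + 1) for genes with a mean TPM of at least 1, with Benjamini-Hochberg adjustment over all genes tested and a threshold of 0.05. The members and lists were chosen with earlier results of these data known. Values per library are given for junction genes with an unadjusted p under 0.05 or without overlap, the most abundant of each class, and Epcam, Ocln, F11r, Tjp1, Dsp and Jup. Other values per library were chosen after they were seen. Some genes are not reported here by name, although counts include them. Of 28 scaffold and polarity symbols, 27 were found. Alternatives were another pseudocount, filter, scaling or unit, voom, array weights, a replicate block, and libraries left out. Upstream sequences are from RefSeq on GRCm38.p6.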

Additional observations from a re-analysis of the deposited data

How the results depend on the processing

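Junction genes higher in BrafYAP at an unadjusted p under 0.05 numbered 6 to 11 under settings that kept all libraries, beside 8 as reported, and 5 to 10 when each library was left out in turn. The junction genes tested numbered 25 with the deposited values, 28 with the higher minimum, 40 with estimated reads or voom, 46 without a filter and 36 otherwise. Shares of all genes by direction are not given for these settings, so the counts show only how far the results move. Those lower numbered 5 with quantile normalization, estimated reads or voom, 7 with array weights, 4 with the deposited values, 1 without both YAP replicate 1 and BrafYAP replicate 6 (chosen after seeing the data), and 1 to 4 when each library was left out. The count without overlap and lower was 4 to 9 when each library was left out (9 without YAP replicate 2), and the one higher was 10 to 14. With a library left out, any gene is more easily without overlap, and the share over all genes is not given. These counts are therefore not comparable with those from all libraries. Junction genes past the adjusted threshold numbered 1 with quantile normalization (Cldn1), 9 with array weights (among them Cldn1, Cldn2, Cldn3, Cldn23, Dsg2, Dsp, Gja1 and Gja5) and 0 or 1 when each library was left out (Cldn2 without BrafYAP replicate 6). Cldn2 reached the minimum mean through BrafYAP alone, so its calls are no support. Array weights let YAP replicate 3 count most (weight 4.22) and BrafYAP replicate 6 least (0.225). With these weights 4118 of 14768 genes passed, beside 9 of the 36 junction genes.

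Over all genes, calls at the adjusted threshold numbered 34 with a pseudocount of 0.1, 0 with a minimum mean TPM of 10, no filter, estimated reads or voom, 101 with quantile normalization, 19 with median-ratio rescaling, 4118 with array weights, 18 with the deposited values, 13 without YAP replicate 1 and BrafYAP replicate 6, and 0 to 93 when each library was left out (93 without BrafYAP replicate 6, 0 without any of the other 5). Genes with an unadjusted p under 0.05 numbered 1562 with the higher minimum, 6083 with array weights, 1455 with the deposited values, 3038 as reported, and 2084 to 3487 when each library was left out.

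Replicate numbers 1 and 2 occur in both genotypes, whereas 3 occurs in YAP only and 6 in BrafYAP only. Deviations of same-numbered libraries correlated at -0.05 and 0.06, so the numbers are not shown to pair libraries. In the fit with the replicate block, YAP replicate 3 and BrafYAP replicate 6 each have a block of their own. That fit therefore takes the genotype difference from replicates 1 and 2 only. With the replicate block, 0 genes passed the adjusted threshold (2632 had an unadjusted p under 0.05), as did 0 junction genes. At an unadjusted p under 0.05, 11 junction genes were higher and 1 lower. In that fit, which rests on replicates 1 and 2, the sign turned for Cldn10 (-0.29), Cldn4 (0.088), Dsc2 (-0.13), Gja4 (-0.31), Marveld1 (0.45), Marveld2 (0.022), Ocln (0.039), Pkp1 (0.040) and Tjp1 (-0.0094). These turns are therefore not shown to come from pairing.

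For 21 of the 33 tested genes reported by name no setting turned the sign of the log2 fold change. Leaving out BrafYAP replicate 6 turned Cldn10 (-0.19), Dsc2 (-0.35), Gja4 (-0.31), Marveld1 (0.38) and Tjp1 (-0.05). Leaving out YAP replicate 2 turned Cldn6 (-0.24) and Dsc2 (-0.21), YAP replicate 3 turned Marveld1 (0.02), and YAP replicate 1 turned Pkp2 (-0.052). Leaving out YAP replicate 1 and BrafYAP replicate 6 turned Cldn10 (-0.20), Cldn5 (-0.0010), Dsc2 (-0.35), Gja4 (-0.35), Marveld1 (0.27) and Tjp1 (-0.058). Array weights turned Dsc2 (-0.63), Gja4 (-0.35), Marveld1 (0.21) and Tjp1 (-0.13). Median-ratio rescaling turned Marveld1 (0.0014). For Dsc2 the value was also -0.11 with quantile normalization, -0.0100 with the deposited values, -0.040 with estimated reads and -0.027 with voom. With each library left out, and both of those together, the widest values on the other side were 1.97 for Cldn10, 1.96 for Cldn5, 1.28 for Cldn6, 0.23 for Dsc2, 0.50 for Gja4, -0.27 for Marveld1, 0.73 for Pkp2 and 0.33 for Tjp1. The cause of these differences was not tested.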
